A study of Mus musculus with 11 samples.

Results

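Immediate early genes are genes that cells transcribe within minutes of a stimulus without first making new protein. The 9 described here, *Fos*, *Fosb*, *Jun*, *Junb*, *Egr1*, *Egr3*, *Ier2*, *Nr4a1* and *Dusp1*, were chosen by gene symbol from a table of 18667 genes. Each RNA-Seq library came from a single whole cochlea of a mouse aged 2 months, 5 of them *Atf6*+/+ and 6 *Atf6*-/-. Both genotypes were littermates on a C57BL/6J background and included female and male mice. The *Atf6*-/- allele is not limited to 1 tissue, and by the study's account it ends the reading frame early, so that no ATF6 protein is made. With the protein absent throughout the animal, a change in the cochlea cannot be told apart from a response to changes elsewhere in the animal. The values are FPKM, fragment counts that the authors scaled by transcript length and by library size. The libraries summed to between 474616 and 537926 FPKM in *Atf6*+/+ and between 462005 and 502419 FPKM in *Atf6*-/-. The study's methods give the same nominal number of reads for every library, and the reads behind each value were not used here. *Atf6* RNA was lower but still present in *Atf6*-/- libraries, at 4.27 ± 0.285 FPKM (SD, n = 6) against 9.52 ± 1.11 (SD, n = 5), a log2 fold change of -1.13 (SE 0.0837). The genotypes did not overlap, so no library went against its label. Nothing in the labels says how separate the animals of a genotype were in litter or dissection, so p-values measure only the spread between these libraries.

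Growth factors, calcium entry, depolarisation, noise, tissue injury and handling all induce immediate early genes. Kinases of the MAPK pathway act on SRF and its ternary complex partners at the CArG box, and cAMP and calcium signals act on CREB at the cAMP response element, or CRE. The products are mostly transcription factors, with FOS and JUN proteins pairing as AP-1, and some, such as the MAPK phosphatase DUSP1, switch the pathway off again.

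The stretches before the transcription starts are shown for *Jun*, *Junb*, *Nr4a1*, *Dusp1* and *Fos*. *Jun* and *Junb* were the pair whose levels moved together most closely. *Nr4a1* and *Dusp1* also tended to move together (Pearson r = 0.667 over 11 libraries), but did not pass the adjustment over pairs. RefSeq promoter sequences of build GRCm38.p6 were found for 6 of the 9 members, and the 250 bases before each start are given 5′ to 3′ on the strand of the gene. Capitals mark the 8-base CRE-like letters TGACNTCA, the CRE half-site TGACG and the EGR site GCGNGGGCG, each on either strand. The stretch of *Jun* lies at chr4:95052223-95052472 on the minus strand, that of *Junb* at chr8:84978749-84978998 on the minus strand and that of *Fos* at chr12:85473640-85473889 on the plus strand. That of *Nr4a1* lies at chr15:101266596-101266845 on the plus strand and that of *Dusp1* at chr17:26508473-26508722 on the minus strand.
Jun: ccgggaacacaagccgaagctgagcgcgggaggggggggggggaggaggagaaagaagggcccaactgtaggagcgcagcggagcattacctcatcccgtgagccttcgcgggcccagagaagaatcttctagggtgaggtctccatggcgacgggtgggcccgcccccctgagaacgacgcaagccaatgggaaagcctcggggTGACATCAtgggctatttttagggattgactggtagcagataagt
Junb: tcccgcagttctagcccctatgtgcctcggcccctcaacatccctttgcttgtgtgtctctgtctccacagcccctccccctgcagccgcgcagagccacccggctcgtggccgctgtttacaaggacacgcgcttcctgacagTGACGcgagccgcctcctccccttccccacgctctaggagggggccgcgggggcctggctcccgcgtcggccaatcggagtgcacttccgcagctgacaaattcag
Fos: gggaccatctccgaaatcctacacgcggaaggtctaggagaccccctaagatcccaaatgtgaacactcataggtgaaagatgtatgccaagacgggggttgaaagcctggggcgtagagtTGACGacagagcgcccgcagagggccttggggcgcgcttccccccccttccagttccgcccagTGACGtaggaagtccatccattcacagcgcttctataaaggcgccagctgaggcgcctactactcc
Nr4a1: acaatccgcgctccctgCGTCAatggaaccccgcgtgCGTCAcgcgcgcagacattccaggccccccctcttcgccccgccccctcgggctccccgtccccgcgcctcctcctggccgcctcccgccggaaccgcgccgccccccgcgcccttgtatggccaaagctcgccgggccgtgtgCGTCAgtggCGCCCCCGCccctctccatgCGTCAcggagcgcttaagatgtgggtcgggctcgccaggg
Dusp1: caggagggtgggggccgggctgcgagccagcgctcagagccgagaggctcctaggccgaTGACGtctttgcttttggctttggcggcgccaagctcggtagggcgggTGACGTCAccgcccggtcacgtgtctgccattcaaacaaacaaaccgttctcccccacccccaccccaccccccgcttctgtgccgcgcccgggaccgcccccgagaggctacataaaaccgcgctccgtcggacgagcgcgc
The full CRE TGACGTCA was found in 1 of the 6, *Dusp1*, at positions -143 to -136 from the start, and in 1.55% of 32851 promoters searched over the same length. TGACNTCA, which takes in the full CRE, was in *Jun*, at -45 to -38, and in *Dusp1*, against 7.49% of all promoters. The half-site TGACG was in 5 of the 6, all but *Jun*, against 17.8% of all promoters. *Fos* held it at -129 to -125 and at -66 to -62, and *Nr4a1* held 4 copies, all on the opposite strand. The EGR letters were in *Fosb* and *Nr4a1*, against 4.70% of all promoters, and the GC box GGGCGG, which can overlap them, was in all but *Junb*, against 32.7%. TATAAA was in *Fos* alone of the 6, at -33 to -28, against 12.4%. Within these stretches the CArG box was in none of the 6 and in 1.47% of all promoters, and the AP-1 letters TGANTCA were in none and in 6.75%. Bases farther upstream, and the promoters of *Egr1*, *Egr3* and *Ier2*, were not searched, so no member can be said to lack these sites. These matches describe letters only, and no binding was measured.

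No immediate early gene differed between the genotypes beyond the spread of its libraries. In limma, 0 of the 9 members reached an unadjusted p of at most 0.05, where 9.85% of the 16169 genes tested did, 4.48% higher and 5.37% lower in *Atf6*-/-. At an adjusted p under 0.05 the count was also 0 of 9, against 0.068% of all genes tested. The genotypes overlapped for all 9 members, whereas they did not overlap for 1.25% of all genes tested. The log2 fold changes, *Atf6*-/- over *Atf6*+/+, ran from -0.31 to 0.50, 2 of them above 0 and 7 below. Their median was -0.056, beside -0.013 over all genes tested.

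**Figure D1:**
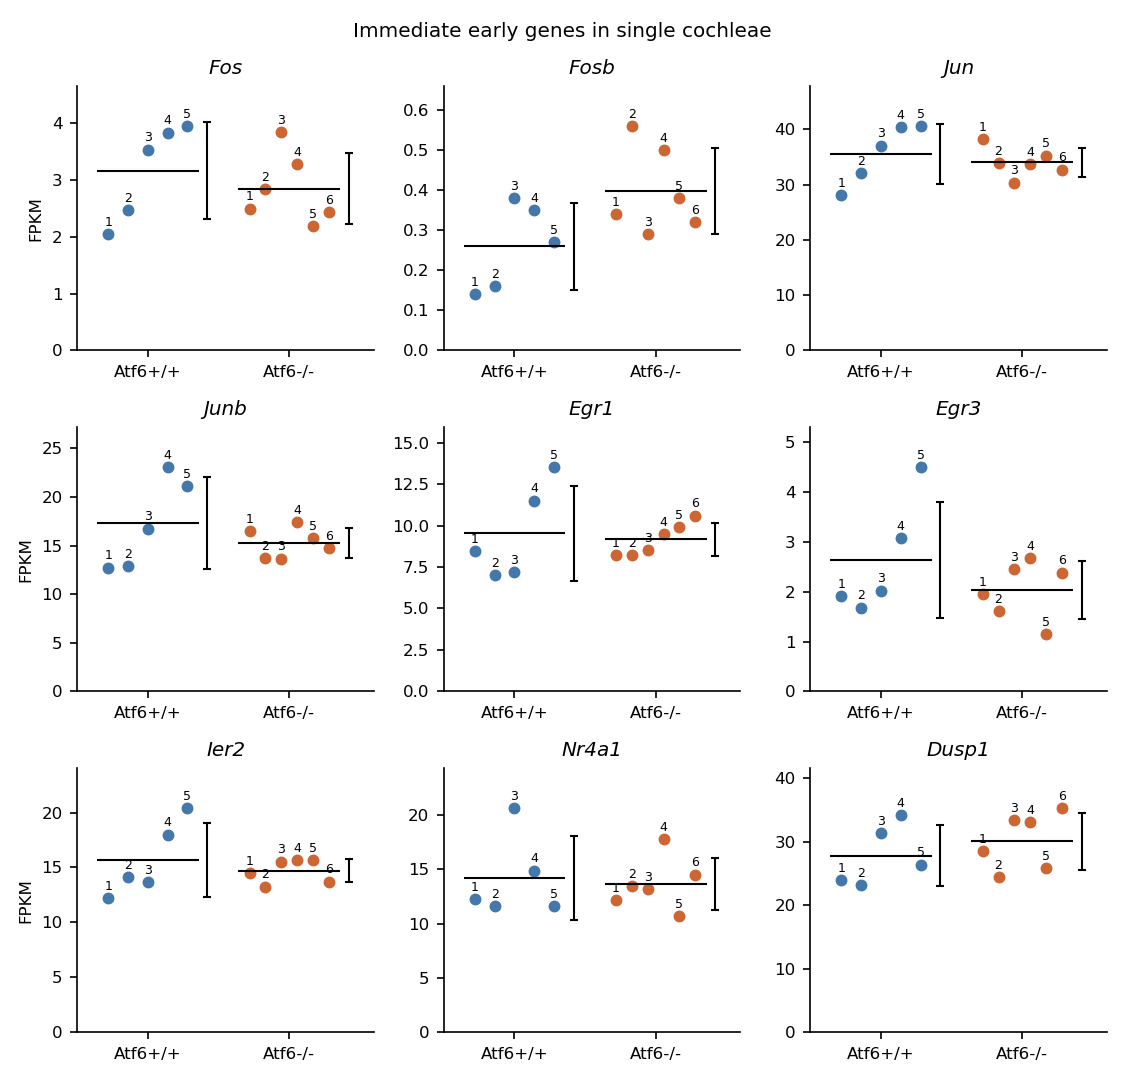
FPKM of each immediate early gene in the 5 *Atf6*+/+ (blue) and 6 *Atf6*-/- (orange) libraries, with the replicate number beside each point, the mean as a line and the SD as a bar. The 2 genotypes overlap in every panel, and *Atf6*+/+ libraries 1 and 2 lie below the *Atf6*+/+ mean for all 9 genes.

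Of the FOS family, *Fos* was expressed at 2.04, 2.47, 3.53, 3.83 and 3.94 FPKM in *Atf6*+/+ libraries 1 to 5, and between 2.19 and 3.84 FPKM, median 2.67, in the 6 *Atf6*-/- libraries. The 2 lowest *Atf6*+/+ cochleae sat inside the *Atf6*-/- range or under it, and the other 3 lay near its upper end or above it. The log2 fold change of *Fos* was -0.13 (SE 0.191, 95% interval -0.54 to 0.29, limma adjusted p = 0.840). *Fosb*, which encodes another FOS protein of AP-1, was the least abundant member, at 0.14, 0.16, 0.38, 0.35 and 0.27 FPKM in *Atf6*+/+. In *Atf6*-/- it lay between 0.29 and 0.56 FPKM, median 0.36. *Atf6*+/+ libraries 1, 2 and 5 fell below every *Atf6*-/- library, and libraries 3 and 4 lay inside the *Atf6*-/- range. *Fosb* had the highest fold change of the 9, 0.50 on the log2 scale (SE 0.238, 95% interval -0.02 to 1.01, limma unadjusted p = 0.0575 and adjusted p = 0.505), and the exact two-sided permutation test gave p = 0.0823. At this low level its size depended on the pseudocount, and it was 0.15 with a pseudocount of 1 FPKM and 0.66 with 0.01 FPKM. In a whole cochlea, fewer cells of a type and less RNA per cell cannot be told apart.

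Of the JUN family, *Jun* was the most abundant member, at 28.06, 32.12, 37.05, 40.37 and 40.56 FPKM in *Atf6*+/+ and between 30.35 and 38.19 FPKM, median 33.8, in *Atf6*-/-. The *Atf6*-/- range lay wholly inside the *Atf6*+/+ range. The log2 fold change was -0.06 (SE 0.095, 95% interval -0.26 to 0.15, limma adjusted p = 0.866), the narrowest interval among the members. *Junb*, which encodes a JUN protein that also pairs with FOS proteins, was at 12.72, 12.91, 16.74, 23.05 and 21.14 FPKM in *Atf6*+/+ and between 13.64 and 17.42 FPKM, median 15.3, in *Atf6*-/-. *Atf6*+/+ libraries 1 and 2 were below and libraries 4 and 5 above all 6 *Atf6*-/- libraries. Its log2 fold change was -0.14 (SE 0.151, 95% interval -0.47 to 0.19, limma adjusted p = 0.762).

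The zinc finger factor *Egr1* showed 8.46, 7.0, 7.18, 11.50 and 13.51 FPKM in *Atf6*+/+ and 8.21 to 10.6 FPKM, median 9.01, in *Atf6*-/-. Its highest values were again *Atf6*+/+ libraries 4 and 5, and its lowest *Atf6*+/+ libraries 2 and 3. The log2 fold change was -0.01 (SE 0.161, 95% interval -0.36 to 0.34, limma adjusted p = 0.985). *Egr3*, a related factor that EGR1 and other early signals induce, was at 1.91, 1.68, 2.02, 3.07 and 4.49 FPKM in *Atf6*+/+ and between 1.15 and 2.67 FPKM, median 2.17, in *Atf6*-/-. *Atf6*+/+ libraries 4 and 5 lay above every *Atf6*-/- library, and the lowest cochlea of all was *Atf6*-/- library 5. The log2 fold change of -0.31 was the lowest of the 9, with the widest interval (SE 0.267, 95% interval -0.89 to 0.27, limma adjusted p = 0.695). Without *Atf6*+/+ library 5 it was -0.10.

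*Ier2*, a short-lived nuclear protein of the early response, was at 12.24, 14.09, 13.65, 17.99 and 20.38 FPKM in *Atf6*+/+ and between 13.25 and 15.65 FPKM, median 15.0, in *Atf6*-/-. The *Atf6*-/- cochleae were tightly grouped, with *Atf6*+/+ library 1 below them and libraries 4 and 5 above. Its log2 fold change was -0.07 (SE 0.117, 95% interval -0.32 to 0.19, limma adjusted p = 0.869). *Nr4a1*, an orphan nuclear receptor, was at 12.24, 11.60, 20.61, 14.88 and 11.61 FPKM in *Atf6*+/+ and between 10.71 and 17.76 FPKM, median 13.3, in *Atf6*-/-. Here *Atf6*+/+ library 3 stood highest, and library 5, the highest for *Ier2*, *Egr1*, *Egr3*, *Jun* and *Fos*, was among the lowest. The log2 fold change of *Nr4a1* was -0.04 (SE 0.158, 95% interval -0.38 to 0.31, limma adjusted p = 0.952). *Dusp1*, the phosphatase that inactivates MAP kinases, was at 23.99, 23.12, 31.31, 34.15 and 26.41 FPKM in *Atf6*+/+ and between 24.41 and 35.25 FPKM, median 30.8, in *Atf6*-/-. The ranges nearly coincided, and the log2 fold change was 0.12 (SE 0.123, 95% interval -0.15 to 0.38, limma adjusted p = 0.760).

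These intervals state which differences the libraries can show. For *Jun* the interval leaves out a change of more than 0.26 on the log2 scale in either direction, while for *Egr3* and *Fosb* it takes in changes of 0.89 and 1.01. Over 188 fits with another setting or with 1 library left out, the lowest adjusted p of any member was 0.421. With a score of marrow cells as a covariate (neutrophil, B cell and erythroid markers averaged), 3 of 9 members reached an unadjusted p of at most 0.05, as 5.2% of all genes tested did in that fit. These were *Fosb* at 0.89, *Nr4a1* at 0.36 and *Dusp1* at 0.33 on the log2 scale (limma adjusted p = 0.877, 0.900 and 0.927). The marrow markers themselves tended lower in *Atf6*-/-, with 0 of them past the adjusted p in limma. All 12 neutrophil genes were lower in *Atf6*-/-, 7 of them at the unadjusted p, with summed levels of 280 to 3310 FPKM in *Atf6*+/+ and 97.1 to 1250 FPKM in *Atf6*-/-. All 10 erythroid genes were lower, 8 at the unadjusted p (4840 to 46400 and 2870 to 9390 FPKM), and 9 of 10 B cell genes, 4 at the unadjusted p (35.3 to 60.3 and 33.1 to 42.8 FPKM). *Vpreb1* was at 0 in some libraries and no other gene of these lists was. The part of marrow cells in the members' levels was not tested beyond that covariate. Without *Atf6*+/+ library 3 or 4, or without *Atf6*-/- library 3, *Fosb* alone reached the unadjusted p (log2 fold change 0.62, 0.59 and 0.56, limma adjusted p = 0.625, 0.573 and 0.473), as 7.44%, 8.45% and 10.4% of all genes tested did in those fits.

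Related genes were counted in the same way. Of 14 genes of the same families (FOS, JUN, EGR, NR4A, IER and DUSP), 13 were tested and 1, *Ier3*, was lower in *Atf6*-/- at the unadjusted p, a share near the 5.37% of all genes tested called lower. *Ier3*, a stress-induced gene of the early response, was at 15.96, 18.46, 13.45, 19.84 and 22.84 FPKM in *Atf6*+/+ and between 13.45 and 16.49 FPKM in *Atf6*-/-, so the groups overlapped. Its log2 fold change was -0.28 (limma unadjusted p = 0.0300, adjusted p = 0.475). *Egr4* was under the filter, at a mean of 0.048 FPKM in *Atf6*+/+ and 0.113 FPKM in *Atf6*-/-. Of 28 other early response genes, among them *Atf3*, *Arc*, *Npas4*, *Klf2*, *Myc* and *Per1*, 0 reached the unadjusted p in limma. Their median log2 fold change was -0.041, with 13 above 0 and 15 below.

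Of 23 factors that act upstream of the members (SRF and its partners, CREB and its coactivators, MAP kinases and the EGR corepressors), 1 reached the unadjusted p, where 9.85% of all genes tested did, and 19 of the 23 log2 fold changes were above 0, as were 7324 of the 16169 genes tested. *Elk1*, a ternary complex partner of SRF that MAP kinases phosphorylate, was at 9.46, 9.85, 9.59, 8.56 and 8.99 FPKM in *Atf6*+/+ and at 10.99, 11.14, 11.01, 10.52, 12.04 and 11.57 FPKM in *Atf6*-/-. Every *Atf6*-/- cochlea was above every *Atf6*+/+ cochlea, and the genotypes did not overlap for 1.25% of all genes tested. The log2 fold change of 0.27 did not pass the adjustment over all genes (limma adjusted p = 0.133). The exact two-sided permutation test gave p = 0.00433, the smallest p this test can give with these numbers of libraries. The other 22 upstream factors had log2 fold changes between -0.11 and 0.31.

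**Figure D2:**
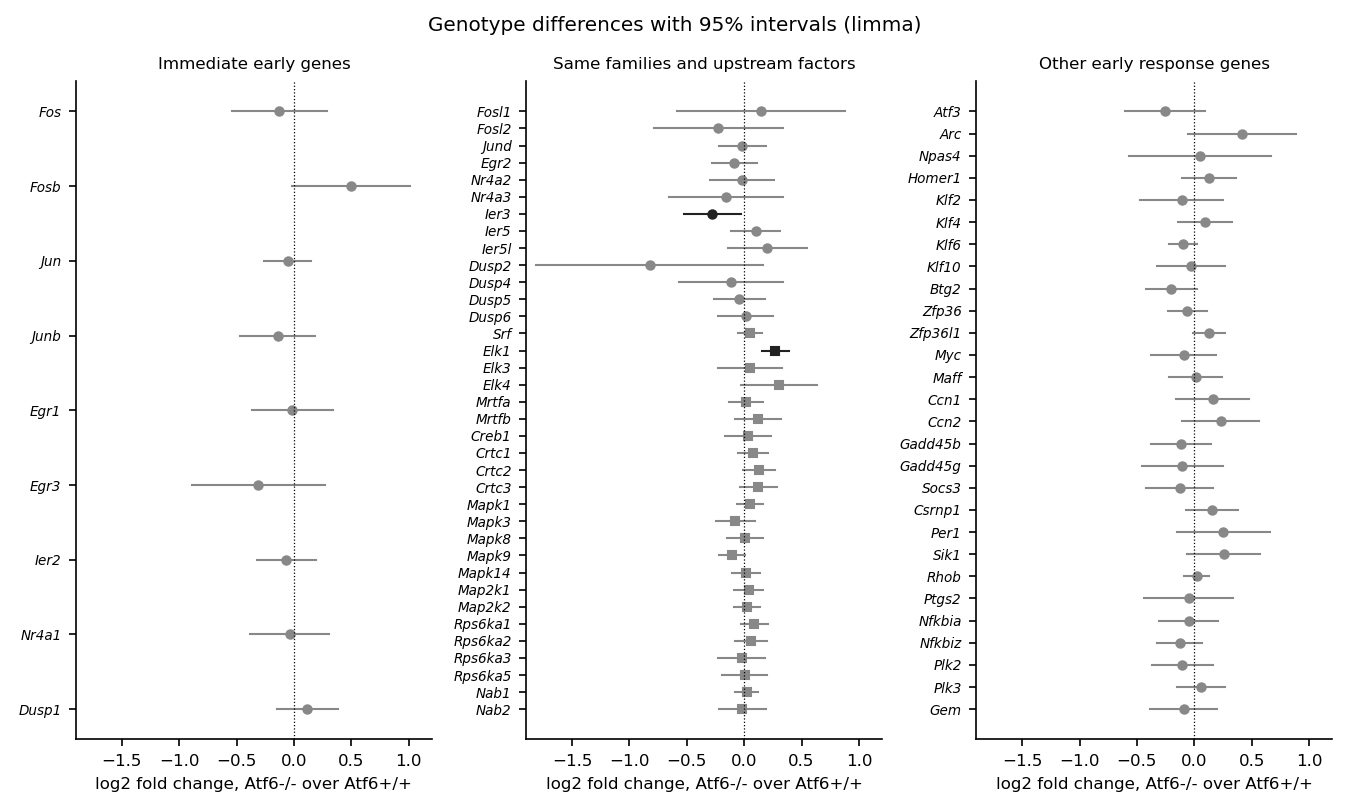
Log2 fold change, *Atf6*-/- over *Atf6*+/+, with its 95% interval from limma for the 9 immediate early genes (left), for 13 genes of the same families as circles and 23 upstream factors as squares (middle) and for 28 other early response genes (right). Those with an unadjusted p of 0.05 or less are black and all others grey, and *Ier3* and *Elk1* alone are black.

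The order of the levels, by mean FPKM over the 11 cochleae, was *Jun* (34.8), *Dusp1* (29.0), *Junb* (16.2), *Ier2* (15.1), *Nr4a1* (13.9), *Egr1* (9.33), *Fos* (2.99), *Egr3* (2.31) and *Fosb* (0.335). Neighbours in this order were compared within libraries by an exact paired permutation test on log2 values, with adjustment over 8 comparisons. *Jun* was above *Dusp1* in 9 of 11 libraries (exact p = 0.00977, adjusted p = 0.013), and *Dusp1* above *Junb* in 11 of 11 (exact p = 0.000977, the smallest possible, adjusted p = 0.00261). *Ier2* did not differ beyond the spread from either of its neighbours. *Junb* was above *Ier2* in 9 of 11 libraries (exact p = 0.111, adjusted p = 0.127), and *Ier2* above *Nr4a1* in 6 of 11 (exact p = 0.264, adjusted p = 0.264). *Egr1* was below *Nr4a1* in 10 of 11 (exact p = 0.00293, adjusted p = 0.00586), and *Fos* below *Egr1* in all 11. *Egr3* was below *Fos* in 10 of 11 (exact p = 0.00488, adjusted p = 0.00781), and *Fosb* below *Egr3* in all 11.

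The members varied more than most genes between cochleae of the same genotype. The pooled within-genotype SD of *Egr3* was 0.496 on the log2 scale, higher than that of 94.9% of the 13611 genes averaging 1 FPKM or more, whose median SD was 0.136. *Fos* followed with an SD of 0.349 (above 90.2% of those genes), then *Egr1* with 0.300 (87.1%), *Nr4a1* with 0.297 (87.0%) and *Junb* with 0.283 (85.8%). *Dusp1* (0.229, 79.7%), *Ier2* (0.216, 77.5%) and *Jun* (0.173, 66.9%) varied least. *Fosb* had an SD of 0.377, which at 0.335 FPKM is not comparable with that of more abundant genes. These percentiles are descriptions, since the low genes carry more counting error and read counts were not used here.

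The spread was larger among *Atf6*+/+ cochleae for 9 of 9 members, against 62.0% of all genes tested. For *Ier2* the SD of the log2 values was 0.302 in *Atf6*+/+ and 0.105 in *Atf6*-/-, a ratio of 2.88. *Junb* (ratio 2.74), *Egr1* (2.73) and *Jun* (2.08) also had an SD at least 2 times larger in *Atf6*+/+, making 4 of 9 members, against 14.9% of all genes tested. *Fosb* (1.51), *Nr4a1* (1.44), *Fos* (1.4), *Egr3* (1.30) and *Dusp1* (1.12) differed less. The 9 members share the same 11 libraries, so the 9 values are not independent. No test of the difference in spread was made.

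**Figure D3:**
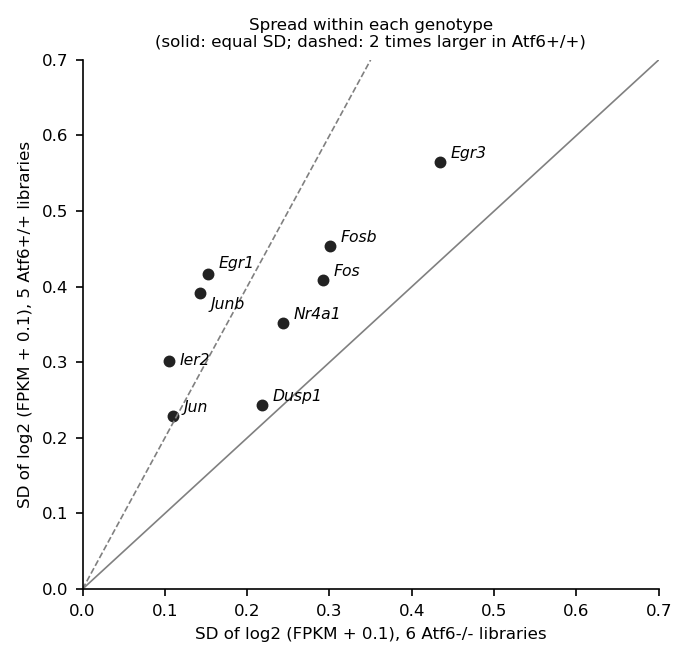
SD of log2 (FPKM + 0.1) of each immediate early gene over the 6 *Atf6*-/- libraries (horizontal) and the 5 *Atf6*+/+ libraries (vertical), with a solid line at equal SD and a dashed line at 2 times larger in *Atf6*+/+. All 9 genes lie above the solid line, and *Egr1*, *Junb*, *Ier2* and *Jun* lie on or beyond the dashed one.

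The same *Atf6*+/+ libraries were low or high for most members. *Atf6*+/+ libraries 1 and 2 were above the median of their genotype for 0 of 9 members, and one or the other was the lowest *Atf6*+/+ library for all 9. Library 4 was above the median for 9 of 9 members, library 5 for 6 and library 3 for 3. Library 5 was the highest for 5 members (*Fos*, *Jun*, *Egr1*, *Egr3* and *Ier2*), library 4 for *Junb* and *Dusp1*, and library 3 for *Fosb* and *Nr4a1*. Among *Atf6*-/- cochleae, library 4 was above the genotype median for 8 of 9 members and the highest for 4, library 1 was above it for 2, and the other 4 libraries for 4 or 5.

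With the genotype mean of each gene subtracted, the members tended to rise and fall together across the 11 libraries. In the 6 *Atf6*-/- libraries alone they did so less, with a median r of 0.129 over the pairs, as described below. Of the 36 pairs of members, 34 had a positive Pearson r, with a median of 0.552 (median Spearman rho 0.468). The median r between a member and all other genes tested was 0.009. An r above 0.55 was found for 18 of the 36 pairs, or 50.0%, a share that follows from a cut set near their own median. Of pairs of a member and another gene, 9.69% were above the same cut. Without the 2 libraries farthest from the median of the first gene of a pair, 34 of 36 stayed positive and the median r was 0.433.

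*Jun* and *Junb* were the closest pair, with r = 0.873 (permutation p = 0.00034, adjusted p over 36 pairs = 0.0122) and rho = 0.864 (permutation p = 0.001, adjusted p = 0.036), and with r = 0.803 without the 2 farthest libraries. Of the promoters shown above, that of *Jun* holds the 8-base CRE-like letters but no half-site, and that of *Junb* a half-site but not the 8 bases. *Junb* and *Ier2* followed with r = 0.815 (permutation p = 0.00263, adjusted p = 0.0473) and rho = 0.8 (permutation p = 0.0047, adjusted p = 0.0564), and r = 0.711 without the 2 farthest libraries. *Junb* and *Ier2* both lie on chromosome 8 with 17 protein-coding genes between them in the gene order of GRCm38, and those genes had a median r of 0.263 with *Junb* and 0.16 with *Ier2*. These were the only pairs with an adjusted p under 0.05 by r, and *Jun* and *Junb* the only one by rho, while 15 of the 36 had an unadjusted p of at most 0.05 by r. The permutations shuffled centred values over both genotypes, whose spreads differed, so the p-values of pairs can be too small.

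*Egr1* went with *Ier2* (r = 0.777, permutation p = 0.00516, adjusted p = 0.0619, and rho = 0.773, permutation p = 0.00733, adjusted p = 0.066), but r fell to 0.438 without the 2 farthest libraries, so this relation rests partly on them. *Fos* went most closely with *Egr3* (r = 0.714, permutation p = 0.0142, adjusted p = 0.0893, and rho = 0.818, permutation p = 0.00329, adjusted p = 0.0564), with r = 0.724 without the 2 farthest. Over the other 8 members, the median r was 0.664 for *Ier2*, 0.623 for *Junb*, 0.603 for *Egr3* and 0.585 for *Fos*. It was 0.482 for *Jun*, 0.440 for *Fosb*, 0.424 for *Dusp1*, 0.408 for *Egr1* and 0.220 for *Nr4a1*.

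*Nr4a1*, with the lowest of these medians, went with other partners. It went with *Dusp1* (r = 0.667, permutation p = 0.0236, adjusted p = 0.0893, and rho = 0.655, permutation p = 0.0336, adjusted p = 0.169), with r = 0.714 without the 2 farthest libraries, and with *Fosb* (r = 0.613). With *Egr1* and *Ier2* it gave the only negative values among the 36 pairs, r = -0.195 (permutation p = 0.565, adjusted p = 0.616, rho = -0.027) and r = -0.157 (permutation p = 0.645, adjusted p = 0.663, rho = -0.118). *Nr4a1* holds 4 CRE half-sites in the promoter shown above, *Dusp1* holds a full CRE and a further half-site, and *Fos*, *Fosb* and *Junb* hold half-sites too.

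**Figure D4:**
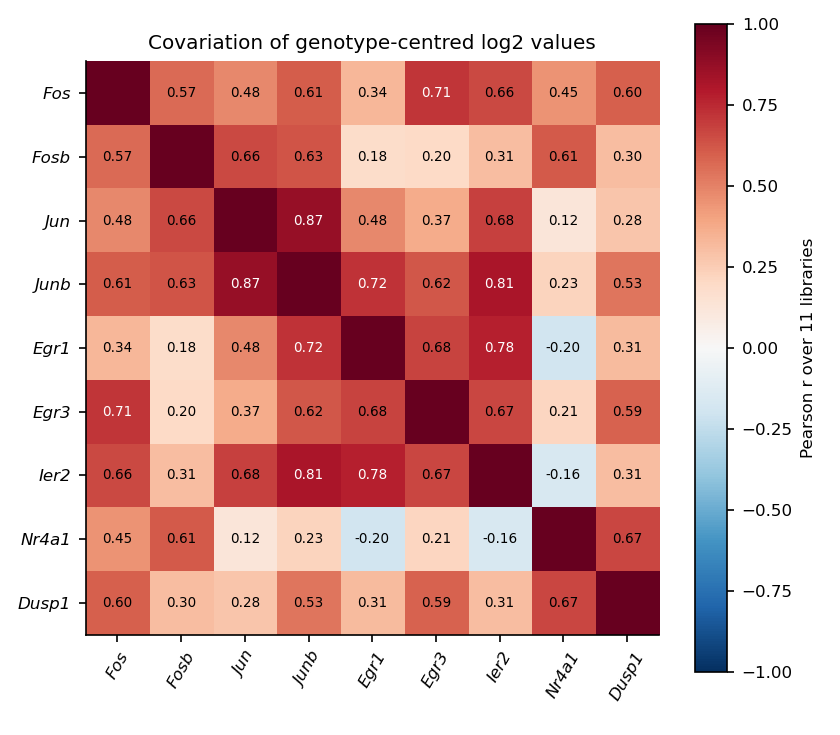
Pearson r over 11 libraries for each pair of immediate early genes, from log2 (FPKM + 0.1) values with the genotype mean subtracted, coloured from -1 (blue) to 1 (red). Of the 36 pairs, 34 are positive, with the highest value for *Jun* and *Junb* (0.87) and the lowest for *Egr1* and *Nr4a1* (-0.20).

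In the 6 *Atf6*-/- libraries alone the median r over the 36 pairs was 0.129, beside 0.552 over all 11, which include them. *Jun* and *Junb* kept r = 0.617, *Nr4a1* and *Dusp1* 0.593, and *Junb* and *Ier2* 0.457, whereas *Egr1* and *Ier2* had 0.146. *Egr3* with *Dusp1* (r = 0.861) and with *Nr4a1* (r = 0.802) were higher there than over all 11. Other pairs turned negative there, the lowest being *Fos* with *Jun* (r = -0.678), *Fosb* with *Dusp1* (-0.519) and *Jun* with *Dusp1* (-0.516). Correlations were given only over 6 or more libraries, so none is given for the 5 *Atf6*+/+ libraries, and the difference between the genotypes in covariation was not tested. Leaving out each library in turn gave a median r between 0.441, without *Atf6*+/+ library 1, and 0.590, without *Atf6*-/- library 1.

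A score was made for each library as the mean of the genotype-centred log2 values of the 8 members with at least 1 FPKM, each divided by its SD. It was -1.19, -1.04, 0.155, 1.06 and 1.0 (no unit) in *Atf6*+/+ libraries 1 to 5, and -0.056, -0.454, 0.139, 0.626, -0.410 and 0.155 in *Atf6*-/- libraries 1 to 6. The low scores were those of *Atf6*+/+ libraries 1 and 2, and the 3 highest those of *Atf6*+/+ libraries 4 and 5 and *Atf6*-/- library 4. Correlations with this score describe 11 bulk libraries, and carry no p.

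Other early response genes that the score did not use moved with it, though not all to the same extent. Of the 28 on that list, 25 had a positive r with the score, as 50.2% of all other genes tested did, and 9 an r above 0.55, as 12.3% did. Chosen after their values were seen, *Klf2* (r = 0.846), *Zfp36* (0.779), *Rhob* (0.771) and *Myc* (0.762) were highest, and *Per1*, a clock gene that glucocorticoids and cAMP also induce, was lowest (r = -0.559). Of the 13 genes tested in the same families, 9 had a positive r and 6 an r above 0.55. Also chosen after their values were seen, *Ier5* had the highest r (0.849), and the 4 below 0 were *Nr4a3* (-0.011), *Dusp4* (-0.052), *Egr2* (-0.055) and *Dusp5* (-0.079).

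The 10 genes most like the score, among 13603 averaging 1 FPKM or more, were *Grrp1* (r = 0.987), *Mepe* (0.961), *Adamtsl2* (0.950), *Pth1r* (0.942), *Anxa11* (0.942), *Tmsb10* (0.940), *Bgn* (0.937), *Taf1c* (0.937), *Dapk2* (0.935) and *Ptgis* (0.934), each over 11 libraries. *Mepe* encodes a matrix phosphoglycoprotein of osteocytes, *Pth1r* the receptor of parathyroid hormone and *Bgn* the matrix proteoglycan biglycan. *Mepe* was at 19.57, 28.18, 47.02, 75.86 and 77.79 FPKM in *Atf6*+/+ libraries 1 to 5, the same order as *Fos* and *Jun*. In *Atf6*-/- it was at 29.73, 22.58, 36.60, 60.22, 21.03 and 31.04 FPKM, with library 4 highest as for the score. An r above 0.8 was found for 1.87% of the 13603 genes and an r below -0.8 for 1.03%.

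Markers of other tissue held by a whole cochlea moved with the score. The score of the bone list (10 genes, among them *Bglap*, *Ibsp*, *Sp7*, *Dmp1*, *Col1a1* and *Runx2*) had r = 0.893 with it (rho 0.918, 0.833 without the 2 farthest libraries, 0.888 in *Atf6*-/- alone). Of the 10 bone genes, 9 had an r above 0.55 and the last, *Spp1*, had -0.057. Summed bone marker levels were 2120 to 3860 FPKM in *Atf6*+/+ and 2060 to 2640 FPKM in *Atf6*-/-, with none at 0. *Spp1* alone took 1730 to 2060 and 1810 to 2060 FPKM of these sums, and the other 9 bone genes summed to 259 to 1890 FPKM in *Atf6*+/+ and 198 to 761 FPKM in *Atf6*-/-. The endothelial list had r = 0.840 (rho 0.864, 0.728 without the 2 farthest, 0.411 in *Atf6*-/- alone), with 7 of 10 genes above 0.55. Its summed levels were 166 to 226 FPKM in *Atf6*+/+ and 177 to 214 FPKM in *Atf6*-/-, with none at 0. The macrophage list had r = 0.655, with 7 of 10 genes above 0.55 and summed levels of 184 to 272 and 130 to 239 FPKM. The FPKM sum of a library also moved with the score (r = 0.732). With the bone score removed by regression, an alternative chosen after seeing the data, the median r over the 36 pairs was 0.163, and with the endothelial score removed it was 0.299. *Jun* and *Junb* had r = 0.871 with bone removed, *Nr4a1* and *Dusp1* 0.608, and *Egr1* and *Nr4a1* -0.719. With the marrow score removed the median r was 0.465.

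The hair cell, supporting cell and stria vascularis lists went the other way over all libraries. Of 10 hair cell genes, 0 had a positive r with the score, where 50.2% of all other genes tested did (list r = -0.515, and 0.001 without the 2 farthest libraries), yet in the 6 *Atf6*-/- libraries alone the list r was 0.758. Their summed levels were 41.5 to 133 FPKM in *Atf6*+/+ and 72.7 to 156 FPKM in *Atf6*-/-, with none at 0. Supporting cell genes did the same (r = -0.434, 0 of 10 genes positive, 0.094 without the 2 farthest, and 0.906 in *Atf6*-/- alone), with sums of 376 to 697 and 514 to 817 FPKM and none at 0. The stria vascularis list had r = -0.416, with 1 of 10 genes positive, -0.311 without the 2 farthest and -0.092 in *Atf6*-/- alone. Its sums were 373 to 692 and 495 to 770 FPKM, and *Bsnd* was at 0 in at least 1 library. The heat shock list, 13 chaperones and co-chaperones of the cytosol and, for *Hspd1* and *Hspe1*, the mitochondrial matrix, had r = 0.316 with the score and 1 of 13 genes above 0.55. What part the share of each of these tissues in a cochlea had in the members' levels was not tested beyond these values. Times of dissection or handling are not in the labels, and their part was not tested.

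**Figure D5:**
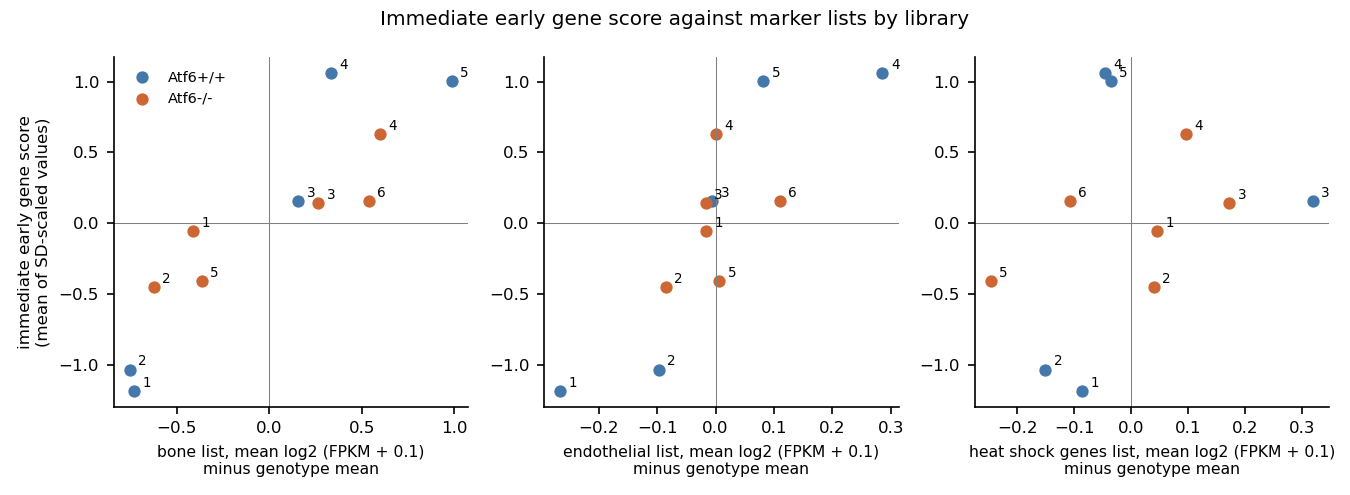
Immediate early gene score of each library (vertical, mean of SD-scaled values, no unit) against the mean log2 (FPKM + 0.1) of the bone, endothelial and heat shock lists with the genotype mean subtracted (horizontal), for *Atf6*+/+ (blue) and *Atf6*-/- (orange) libraries with replicate numbers. The points rise together for bone (r = 0.893) and endothelial genes (r = 0.840) and scatter for heat shock genes (r = 0.316).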

How the data were processed

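RNA-Seq libraries of 5 *Atf6*+/+ and 6 *Atf6*-/- whole cochleae were compared. According to the submitters' processing notes, the authors used HISAT2 2.0.4, RSEM 1.2.12 and DESeq2 1.4.5 with the mouse build GRCm39, and the deposited values are FPKM with 2 decimals, listed by NCBI gene identifier in a table for each genotype. The study's methods state 1 nominal depth for all libraries. Counts were not used, so the depth each library reached and its counting error are not known here, and the number of libraries limits the precision.

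Both tables were joined by gene identifier, 0.1 was added to each deposited FPKM value before the log2 transformation, and the 16169 of 18667 genes that averaged 0.1 FPKM or more were tested. All 9 members passed this filter. Genotype was the only term of a limma 3.58.1 model (R 4.3.3), fitted with a trend of variance on mean. Its two-sided p-values were adjusted by Benjamini-Hochberg over all genes tested. Fold changes are on the log2(FPKM + 0.1) scale, which understates changes of low genes. For single genes an exact two-sided permutation test over all assignments of 5 and 6 libraries was added. Pairs of members were compared by Pearson r and Spearman rho over 11 libraries with each genotype's mean subtracted, with 100000 permuted pairings and adjustment over 36 pairs. The pairings were shuffled over both genotypes, with no allowance for the subtracted means or for the larger spread in *Atf6*+/+. The model was tested on simulated data.

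The members and gene lists were chosen with earlier results of these data known. Genes outside the members were named by a rule: per list and direction, up to 3 genes with the smallest p among those at an unadjusted p of 0.05 or less that averaged 1 FPKM or more, and the 10 genes with the highest r with the members' mean. Exceptions are marked in the text. The alternatives were pseudocounts of 1 and 0.01, other filters, scaling to TPM or by median of ratios, robust variance, a replicate block, a marrow score as a covariate and leaving out each library in turn. A bone or endothelial score was added after seeing the data. Promoters came from RefSeq tables of GRCm38.p6, not the authors' build, and no FPKM value depends on them. Correlations and figures were made in Python 3.11.15 (scipy 1.17.1, pandas 2.3.3, matplotlib 3.10.9, numpy 2.4.6).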

Additional observations from a re-analysis of the deposited data

Results flagged for a closer look

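Of 34 groups of libraries tested for a single distant value (17 genes in each genotype, the 9 members among them), 1 held such a value, where chance gives about 1 in 20. It was *Dnaja1*, an HSP40 co-chaperone of the heat shock list, in *Atf6*+/+ library 3, at 75.67 FPKM, where the nearest of the other *Atf6*+/+ libraries was at 62.39 FPKM and the lowest at 58.99 FPKM. No library of any immediate early gene stood that far from the rest of its genotype.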

How the results depend on the processing

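No member passed an adjusted p of 0.05 in the 188 alternative fits, of which 170 kept the direction and 18 turned it, all with log2 fold changes near 0 or with an adjusted p far above the threshold. Under TPM the median over all genes was 0.041 in place of -0.013, and *Jun* came to 0.0011, *Egr1* to 0.0426 and *Nr4a1* to 0.0182. The marrow covariate gave 0.0837 for *Fos*, 0.0268 for *Egr1* and 0.36 for *Nr4a1*, and the bone covariate, chosen after seeing the data, 0.0206 for *Fos*, 0.1107 for *Egr1*, 0.0219 for *Ier2* and 0.0297 for *Nr4a1*, and took *Egr3* to -0.06. With each library left out, *Egr1* ran from -0.11 to 0.12, *Ier2* from -0.15 to 0.0327, positive without *Atf6*+/+ library 5, *Egr3* from -0.44 to -0.10, nearest 0 without *Atf6*+/+ library 5, and *Nr4a1* from -0.12 to 0.10, positive without *Atf6*+/+ library 3 or *Atf6*-/- library 5. Without a change of sign, *Fos* ran from -0.27 to -0.04, *Jun* from -0.138 to -0.0055 and *Junb* from -0.24 to -0.03. *Fosb* ran from 0.37 to 0.62 and *Dusp1* from 0.05 to 0.19, also keeping their sign.

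The count of members at an unadjusted p of at most 0.05 was 1 with no filter and 1 with TPM (*Fosb* in both, beside 9.2% and 11.1% of all genes in those fits), 3 with the marrow (beside 5.2%) and 2 with the bone covariate (*Fosb* and *Dusp1*, beside 8.26%), and between 0 and 1 with a library left out. For the 41 tested genes of the same families and other early response lists together, the count was 1 in the report, beside 9.85% of all genes tested. It was 2 with a pseudocount of 1 (beside 9.82%), 3 with TPM (11.1%) and 2 with median-of-ratios scaling (10.1%). It was also 2 with the marrow covariate (5.2%), the bone covariate (8.26%) and the replicate block (6.69%). With a library left out it was 0 to 4, the 4 without *Atf6*+/+ library 1 (11.5%). For upstream factors it was 2 with TPM, median-of-ratios scaling or the marrow covariate, 3 with the bone covariate, and 1 to 6 with a library left out, the 6 without *Atf6*-/- library 2, where 11.1% of all genes reached that p. The cause of these moves was not tested. For covariation, the median r over 36 pairs was 0.129 in the *Atf6*-/- libraries alone, 0.163 with the bone and 0.299 with the endothelial score removed, and 0.430 with TPM. For the glucocorticoid-induced list below, the count of 5 was 1 with the marrow covariate (beside 5.2% of all genes tested), 3 with the bone covariate (8.26%) and 4 with the replicate block (6.69%). It was 6 with median-of-ratios scaling (10.1%), robust variance (9.63%) or a mean of at least 1 FPKM (10.2%), and 7 with TPM (11.1%). With a library left out it was 3 to 6, where 7.4% to 11.5% of all genes reached that p.

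Labels of both genotypes carry replicate numbers 1 to 5. The deviations of libraries of the same number had correlations of 0.095, -0.122, -0.210, 0.119 and -0.040. The labels do not say whether such libraries shared a litter or a dissection, and these values cannot tell. With a replicate block, 0 members reached the unadjusted p, and *Fosb* was at 0.54. Without counts for each library, counting error was not separated from variation between cochleae, which bears most on *Fosb*, *Egr3* and *Fos*.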

Other observations

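Glucocorticoids, which rise when an animal is stressed, induce another set of genes that tissue expresses soon after. Of 10 such genes, 9 had a log2 fold change above 0 in *Atf6*-/- cochleae, as did 7324 of the 16169 genes tested, and 5 reached an unadjusted p of at most 0.05, all higher, where 4.48% of all genes tested were called higher. None passed the adjustment over all genes in limma, and the median log2 fold change was 0.222. Lists of cell types that a whole cochlea holds had medians of similar size, 0.262 for fibroblast, 0.243 for hair cell (8 of 10 genes above 0) and 0.183 for supporting cell genes (9 of 10), with bone at -0.333, and their part in these values was not tested. *Mt2*, a metallothionein that binds zinc, was at 421.58, 441.85, 312.06, 407.22 and 515.96 FPKM in *Atf6*+/+ and at 551.48, 744.66, 666.82, 642.31, 459.16 and 469.97 FPKM in *Atf6*-/-. The groups overlapped through *Atf6*+/+ library 5 and *Atf6*-/- libraries 5 and 6, and the log2 fold change was 0.48 (limma adjusted p = 0.391). *Mt1*, its neighbour in the family, was at 0.36 (limma adjusted p = 0.450), and *Cdkn1a*, the cell cycle inhibitor p21, 0.21 (limma adjusted p = 0.362). *Fkbp5* (0.67) and *Errfi1* (0.23), named after their values were seen, were the other 2. The genes of the list that did not reach that p were *Zbtb16* (0.88), *Sgk1* (0.21), *Pdk4* (0.20), *Tsc22d3* (0.05) and *Ddit4* (-0.07). The count of 5 became 3 without *Atf6*+/+ library 3 (beside 7.44% of all genes tested), 3 without *Atf6*+/+ library 4 (8.45%), and 1 with the marrow covariate (5.2%).

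The r of this list with the immediate early gene score was below 0 (r = -0.37 over 11 libraries, and -0.09 without the 2 farthest libraries). Of its 10 genes, 6 had a positive r with the score, none above 0.55, and the lowest, named after its value was seen, was *Sgk1* at -0.611. Of 13 heat shock genes, 11 were below 0 in log2 fold change, as were 8845 of the 16169 genes tested. At the unadjusted p there were 2, both lower, where 5.37% of all genes tested were called lower, *Hspe1* at -0.23 and *Dnaja1* at -0.16 (limma adjusted p = 0.496 and 0.505). The count was 0 without *Atf6*+/+ library 3, where *Hspe1* was at -0.17 and *Dnaja1* at -0.10, and also 0 without *Atf6*-/- library 4, 5 or 6, with the marrow covariate, with TPM and with the replicate block, 1 without *Atf6*+/+ library 1, 4 or 5 or *Atf6*-/- library 1, and 3 without *Atf6*-/- library 3. In those fits between 5.2% and 11.5% of all genes tested reached that p. Without *Atf6*-/- library 4, 5 or 6, *Hspe1* was at -0.23, -0.19 and -0.21, and *Dnaja1* at -0.15, -0.13 and -0.15. They were at -0.21 and -0.15 with the replicate block, -0.18 and -0.11 with TPM, and -0.09 and -0.10 with the marrow covariate.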
